A study of Mus musculus with 8 samples.

Results

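The genes described here are 9 components of tight and gap junctions, Cldn1, Cldn10, Cldn12, Cldn15, Ocln, Tjp1, F11r, Gja1 and Gjc1, measured in sorted mesenchymal stem and progenitor cells (MSPCs) of mouse bone marrow. They were found among the 52636 genes of the deposited count table by their Ensembl identifiers, and all 9 were present. They were selected on their CPM levels in these libraries, by genotype and by the number in the sample title, with earlier results in view, so that their levels and differences are given as descriptions, without a test. The bulk RNA-seq data comprised 8 libraries with 1 mouse per library, of which 4 were controls (CTR, Flk2-cre+ Cxcr4fl/+) and 4 were conditional knockouts (cKO, Flk2-cre+ Cxcr4fl/fl). All mice were on a C57BL/6 background and carried the Flk2-cre transgene, which is inserted in the Y chromosome and deletes floxed Cxcr4 in hematopoietic progenitors and not in MSPCs. The controls thus also lacked 1 functional Cxcr4 allele in Cre-expressing blood cells. All mice also carried a GFP allele at Kitl, the gene of stem cell factor, and the sort took GFP+ PDGFRα+ cells free of blood (CD45, Ter119) and vessel (CD31, CD144) surface markers. The labels give the mice an age of 6 weeks, whereas the methods give an older range for all mice of the study.

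Each sample title holds a number. The numbers ran from 26 to 32 in CTR2, CTR4, cKO2 and cKO4 and from 67 to 86 in CTR1, CTR3, cKO1 and cKO3, and the labels do not say what they stand for. With 2 CTR and 2 cKO libraries in either range, genotypes could be compared within each. Total counts ranged from 31047344 to 38216877. Levels are given as CPM, counts scaled to a common library total, with library sizes corrected for composition by the TMM method. All 9 MSPC markers examined, among them Cxcl12, Lepr and Pdgfra, had counts in every library, and their summed level was 55014 to 67973 CPM. Of 8 epithelial markers, none had a count in every library, and their sum was 0 CPM in every library but CTR4 (2.79 CPM). Endothelial markers summed to 2.50 to 6.28 CPM, hematopoietic markers to 35.6 to 104 CPM, megakaryocyte markers to 2.82 to 11.2 CPM and chondrocyte markers to 17.4 to 43.5 CPM. The Cxcr4 counts were 4 to 19 for CTR and 0 to 12 for cKO libraries, and in these sorted niche cells it does not check the genotype labels.

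Tight junctions seal the space between neighboring cells. Their strands are built by claudins, which pair across the gap and set which ions pass, together with occludin (Ocln) and the immunoglobulin-like adhesion molecule JAM-A (F11r), and they are tied to actin by scaffold proteins such as ZO-1 (Tjp1). Gap junctions join the cytoplasm of neighboring cells through channels made of connexins, among which Gja1 encodes connexin 43 and Gjc1 connexin 45. Tight junctions are known chiefly from epithelial and endothelial sheets, and connexin 43 is known as a major gap junction protein of bone marrow stroma and bone cells.

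The sequence upstream of a gene is shown for 3 of the 9 genes, each for the 250 bases before the start that RefSeq annotates (GRCm38.p6). Cldn1 is shown as the gene whose level separated the title number groups, Gja1 as the gene with the widest spread among libraries of those above 10 CPM, and F11r as a nearly silent gene whose window holds the motif searched. Capitals mark CACCTG, the E-box letters that repressors of the Snai and Zeb families are known to bind, searched on both strands. The windows are chr16:26371840-26372089 on the minus strand for Cldn1, chr10:56377050-56377299 on the plus strand for Gja1 and chr1:171437311-171437560 on the plus strand for F11r. The RefSeq starts differ from the gene starts of GENCODE M21, used below for positions. The Gja1 window ends before the GENCODE start at 56377330, and the F11r window runs past that at 171437535. For Gja1, no GENCODE transcript start was found to hold the bases after the RefSeq start.
Cldn1: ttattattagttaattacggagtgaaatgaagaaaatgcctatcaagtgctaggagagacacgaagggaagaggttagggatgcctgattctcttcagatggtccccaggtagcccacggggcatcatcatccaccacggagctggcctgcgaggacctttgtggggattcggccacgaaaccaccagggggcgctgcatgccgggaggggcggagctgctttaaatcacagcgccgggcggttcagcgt
Gja1: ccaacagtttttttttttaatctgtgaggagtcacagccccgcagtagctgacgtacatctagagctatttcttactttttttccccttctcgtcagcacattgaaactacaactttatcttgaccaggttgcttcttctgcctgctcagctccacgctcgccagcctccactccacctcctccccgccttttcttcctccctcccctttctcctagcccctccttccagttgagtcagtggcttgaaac
F11r: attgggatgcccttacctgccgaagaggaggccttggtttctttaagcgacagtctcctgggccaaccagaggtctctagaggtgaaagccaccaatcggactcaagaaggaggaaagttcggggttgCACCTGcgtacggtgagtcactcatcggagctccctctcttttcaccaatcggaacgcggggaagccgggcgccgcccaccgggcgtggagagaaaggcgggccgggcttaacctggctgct
The Cldn1 window had a GC content of 55.6% with 14 CpG dinucleotides, and that of Gja1 50.0% with 6, where the median of all 32851 windows was 52.4% with 6. The motif was found in 2 of the 12 windows of the 8 genes with an entry, and in 17.2% of all windows. The match in the F11r window began 122 bases before the start, and the other window with a match belonged to Ocln. No entry was matched for Gjc1. A match describes the letters of the window only.

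Per kilobase of annotated exon, the scale on which levels of different genes can be compared, 3 of the 9 genes were abundant, 3 were intermediate and 3 were nearly or wholly absent. Cldn10 was at 116 ± 17.6 CPM per kilobase (SD, n = 8), Gja1 at 80.8 ± 37.7 and Cldn1 at 38.8 ± 15.6. Gjc1 followed at 14.3 ± 1.28, Cldn12 at 10.6 ± 1.07 and Tjp1 at 5.59 ± 1.39, whereas Cldn15 was at 0.445 ± 0.274, F11r at 0.0576 ± 0.0933 and Ocln at 0. The order of the first 3 did not hold in every library, since Cldn10 exceeded Gja1 in 6 of 8 libraries and Gja1 exceeded Cldn1 in 6 of 8, with overlapping ranges. Each neighbor from Cldn1 down to Cldn15 was higher than the next in 8 of 8 libraries, and their ranges did not overlap. With the length of the longest transcript in place of all exons, Gja1 (213 CPM per kilobase) stood above Cldn10 (141), and the other genes kept their places.

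**Figure D1:**
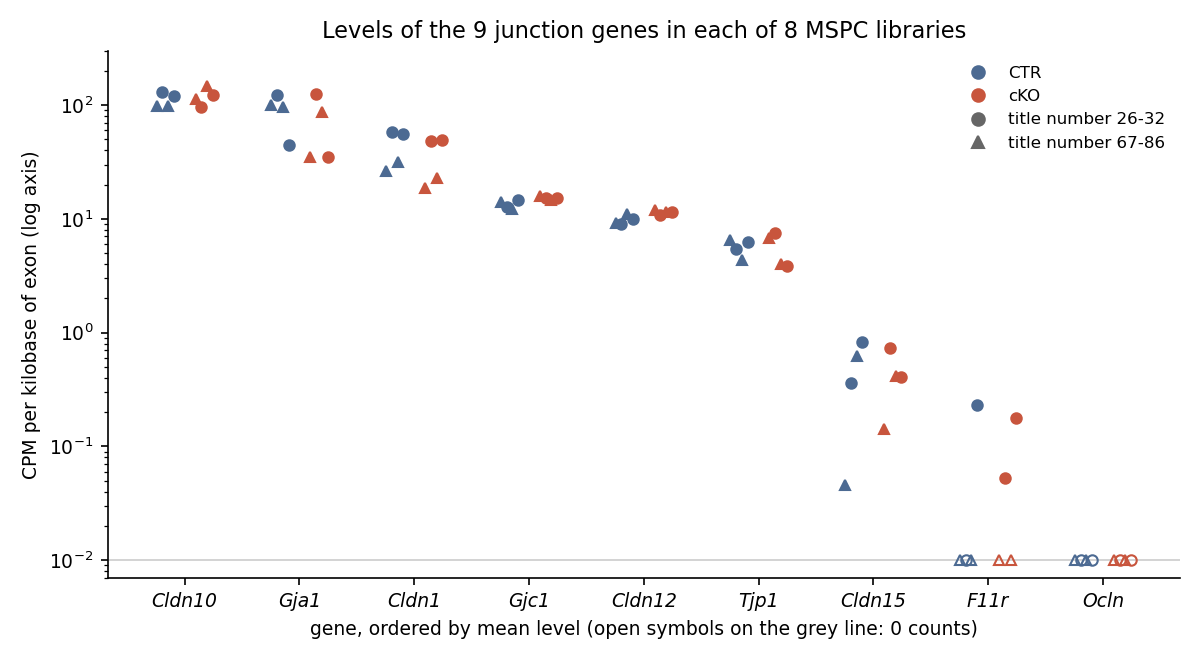
Level of each of the 9 junction genes in each library, in CPM per kilobase of exon on a log axis, with genes ordered by their mean. Blue symbols are CTR and red symbols cKO, circles are title numbers 26-32 and triangles 67-86, and open symbols on the grey line are libraries with 0 counts. Cldn10, Gja1 and Cldn1 lie at the top, F11r has counts in 3 libraries and Ocln in none.

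Cldn10, which forms paracellular ion channels, was the most abundant claudin and held 47.0 to 69.6% of the summed claudin CPM of a library. The gene lies at chr14:118787908-118875489 on the plus strand (GRCm38, GENCODE M21, as for the other genes). Its level was 255, 336, 254 and 309 CPM in CTR1 to CTR4 and 294, 251, 379 and 320 CPM in cKO1 to cKO4. The genotypes overlapped, with the highest value in cKO3 and the lowest in cKO2. The fitted log2 difference, cKO minus CTR, was 0.11 (SE 0.14). The difference had opposite signs in the title number groups, at -0.18 for 26-32 and 0.39 for 67-86, with 2 libraries per genotype in either.

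Cldn1, a sealing claudin of the epidermis (chr16:26356642-26371841, minus strand), held 20.3 to 43.4% of claudin CPM. Its level was 281, 270, 232 and 237 CPM in CTR2, CTR4, cKO2 and cKO4, the libraries with title numbers 26-32. In CTR1, CTR3, cKO1 and cKO3, numbered 67-86, it was 128, 154, 90.3 and 110 CPM. The number groups did not overlap, and their means were 255 ± 24.3 and 121 ± 27.2 CPM (SD, n = 4), a log2 difference of -1.09 (SE 0.11) for 67-86 minus 26-32 with genotype as a term. Cldn1 was the only 1 of the 7 tested members whose number groups did not overlap, where this held for 6.86% of the 14598 genes tested, and 3.43% lay lower in the 67-86 libraries. Between genotypes the values overlapped, with means of 208 ± 78.4 CPM for CTR and 167 ± 78.0 CPM for cKO (log2 difference -0.32, SE 0.36). Within each number group both cKO libraries were below both CTR libraries, as for 3.12% of genes tested. The mean log2 difference was -0.23 in 26-32 and -0.50 in 67-86, and with the number group as a term the fitted difference was -0.36 (SE 0.11) in place of the SE of 0.36 without it. Left out in turn, single libraries set the fitted genotype difference between -0.53 (cKO4 left out) and -0.11 (cKO1 left out).

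Other values moved with the number groups beside Cldn1. The smooth muscle and pericyte markers (Acta2, Rgs5, Myh11, Cspg4 and Mcam), of which 2 of 5 had counts in every library and none was at 0 throughout, summed to 22.5 to 57.9 CPM in 26-32 and to 7.26 to 21.9 CPM in 67-86. Within each number group both cKO sums were also below both CTR sums, at 22.5 and 32.8 against 41.9 and 57.9 CPM in 26-32, and at 10.2 and 7.26 against 21.9 and 18.6 CPM in 67-86. In every library but cKO1, most of the sum came from Rgs5, a regulator of G protein signaling in pericytes, and Myh11, a contractile myosin of smooth muscle. In cKO1 Mcam was the highest at 3.63 CPM, beside 3.14 CPM of Rgs5 and 0 of Myh11. Myh11 was at 8.11 to 18.9 CPM in 26-32 and at 0 to 3.79 CPM in 67-86, and Rgs5 was at 9.72 to 28.7 and at 3.14 to 11.9 CPM. The number groups overlapped for Acta2, Cspg4 and Mcam, and Mcam was at 0 and 3.03 CPM in CTR and at 3.63 and 1.93 CPM in cKO within 67-86. Osteoblast markers, all 5 with counts in every library and none at 0, summed to 11271 to 14027 CPM in 26-32 and to 8078 to 10750 CPM in 67-86, nearly all of it Ibsp. The bone transcription factor gene Sp7 did not follow this, at 51.8 to 70.4 CPM in 26-32 and 49.2 to 101 CPM in 67-86. The number groups also overlapped for Col1a1 (281 to 474 and 289 to 360 CPM) and Dmp1 (5.18 to 14.8 and 4.50 to 7.26 CPM). Bglap overlapped as well, at 0.537 to 1.98 CPM in 26-32 and 1.04 to 3.95 CPM in 67-86. The number of genes with a count was 19363 to 20684 in 26-32 and 18366 to 18750 in 67-86. Total counts were 32188963 to 38216877 in 26-32 and 31047344 to 33070784 in 67-86, with overlapping ranges. The part of depth in the number of detected genes was not tested. The part of any of these in the Cldn1 difference was not tested, and in bulk RNA fewer cells of a type cannot be told apart from less RNA per cell.

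**Figure D2:**
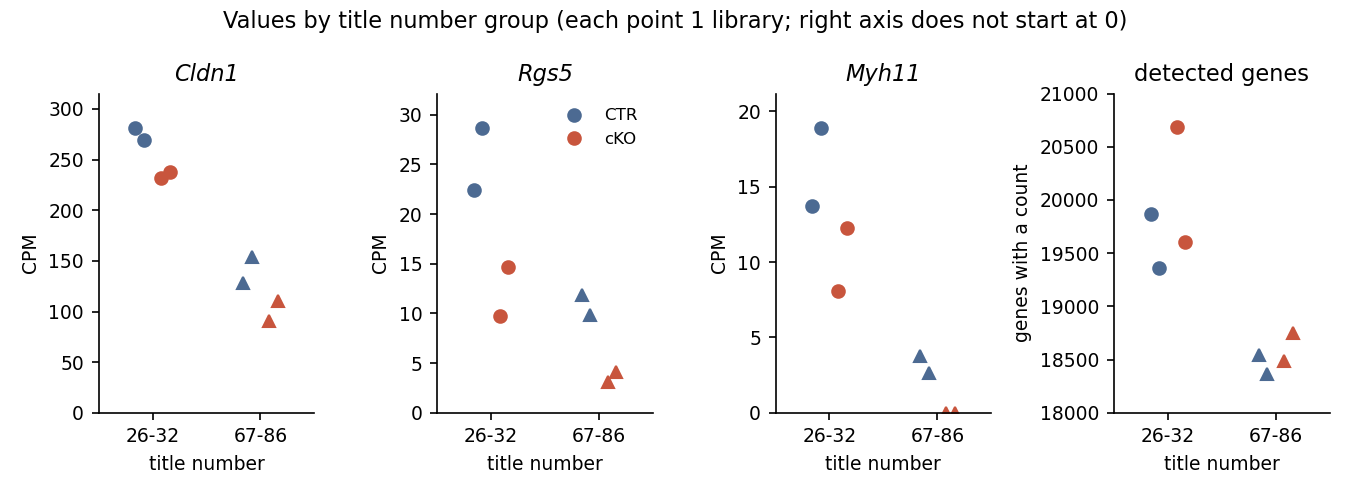
Cldn1, the mural cell genes Rgs5 and Myh11 (CPM) and the number of genes with a count, by title number group, with 1 point per library (blue CTR, red cKO). Cldn1, Myh11 and the number of genes are higher in every 26-32 library than in any 67-86 library, whereas Rgs5 overlaps, and the axis of detected genes does not start at 0.

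Cldn12, a claudin that lacks the usual scaffold-binding tail, was at 38.9, 38.0, 46.4 and 42.6 CPM in CTR1 to CTR4 and at 50.2, 45.7, 48.1 and 48.6 CPM in cKO1 to cKO4 (chr5:5489537-5514958, minus strand). The genotypes overlapped through CTR3 and cKO2 only. The log2 difference, cKO minus CTR, was 0.21 (SE 0.11), and the means were 41.5 ± 3.85 and 48.1 ± 1.87 CPM (SD, n = 4). Both cKO libraries were above both CTR libraries in each number group, at log2 differences of 0.23 and 0.21. Cldn12 and Gjc1 were the 2 members with this pattern, and Cldn1 had the opposite one, where 6.05% of all genes tested had one or the other. Cldn15, a pore-forming claudin of the intestine (chr5:136966616-136975858, plus strand), had only 3, 25, 43 and 66 counts in CTR and 10, 55, 29 and 33 counts in cKO. Its log2 difference of -0.14 had an SE of 0.70, and it turned to 0.30 without CTR replicate 4. Counts ran from 3 to 66 within CTR alone.

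The remaining tight junction components were scarce apart from Tjp1. Ocln (chr13:100496507-100552718, minus strand) had 0 counts in all 8 libraries, which allows a level of up to 0.0785 to 0.0966 CPM for 3 counts, for counting error only. F11r (chr1:171437535-171464603, plus strand) had 0, 0, 0 and 23 counts in CTR1 to CTR4 and 0, 5, 0 and 18 in cKO1 to cKO4. Its counts thus came from 3 libraries with title numbers 26-32, and all 4 libraries numbered 67-86 had 0, below 0.0966 CPM by the same floor. CTR4, with the most F11r (0.616 CPM), was also the library with epithelial marker counts, among them Krt8 (1.77 CPM) and Epcam (0.724 CPM). cKO4, with 0.469 CPM of F11r, had none. Cdh1, Cldn4 and Cldn7 were at 0 throughout. The part of epithelial RNA in the F11r counts was not tested.

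Tjp1, the ZO-1 scaffold (chr7:65296165-65527781, minus strand), was at 51.2, 42.3, 33.9 and 49.2 CPM in CTR1 to CTR4 and at 52.6, 58.7, 31.1 and 30.2 CPM in cKO1 to cKO4. The CTR values lay within the range of the cKO values, and the low libraries were CTR3, cKO3 and cKO4. The log2 difference was -0.03 (SE 0.24) between genotypes and -0.10 (SE 0.25) between number groups.

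Gja1, the connexin 43 gene (chr10:56377330-56402513, plus strand), held 78.8 to 93.3% of the summed connexin CPM. Its level was 1028, 1265, 996 and 461 CPM in CTR1 to CTR4 and 357, 1277, 888 and 355 CPM in cKO1 to cKO4. CTR4, cKO1 and cKO4 were low and the other libraries were at 888 CPM or more, so that low values occurred in both genotypes and in both number groups. The SD of its log2 CPM over the 8 libraries was 0.79, larger than that of 98.3% of the 9406 genes averaging 10 CPM or more, whose median was 0.23. For Cldn1 it was 0.63, larger than in 96.6%, and for Gjc1 0.13, larger than in 13.0%. The log2 difference of Gja1 was -0.38 (SE 0.43) between genotypes and -0.08 (SE 0.46) between number groups. It was -0.18 within 26-32 and -0.85 within 67-86, and leaving out single libraries placed it between -0.81 (cKO2 left out) and -0.15 (cKO4 left out).

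Gjc1, the connexin 45 gene (chr11:102799579-102819700, minus strand), was at 70.3, 63.4, 60.6 and 73.0 CPM in CTR1 to CTR4 and at 78.7, 76.5, 73.3 and 75.8 CPM in cKO1 to cKO4. It was the only 1 of the 7 members tested whose genotypes did not overlap, and the gap between cKO3 and CTR4 was within 1 CPM. Of all genes tested, 2.67% had genotypes that did not overlap. The log2 difference, cKO minus CTR, was 0.19 (SE 0.09), with means of 66.8 ± 5.81 and 76.1 ± 2.22 CPM (SD, n = 4), and it was 0.16 within 26-32 and 0.22 within 67-86. The summed Schwann cell markers also separated the genotypes, at 39.2 to 44.9 CPM in CTR and 48.8 to 51.2 CPM in cKO. Of these 5 markers, only S100b had a count in every library and none was at 0 throughout, and the part of such cells in the Gjc1 values was not tested.

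**Figure D3:**
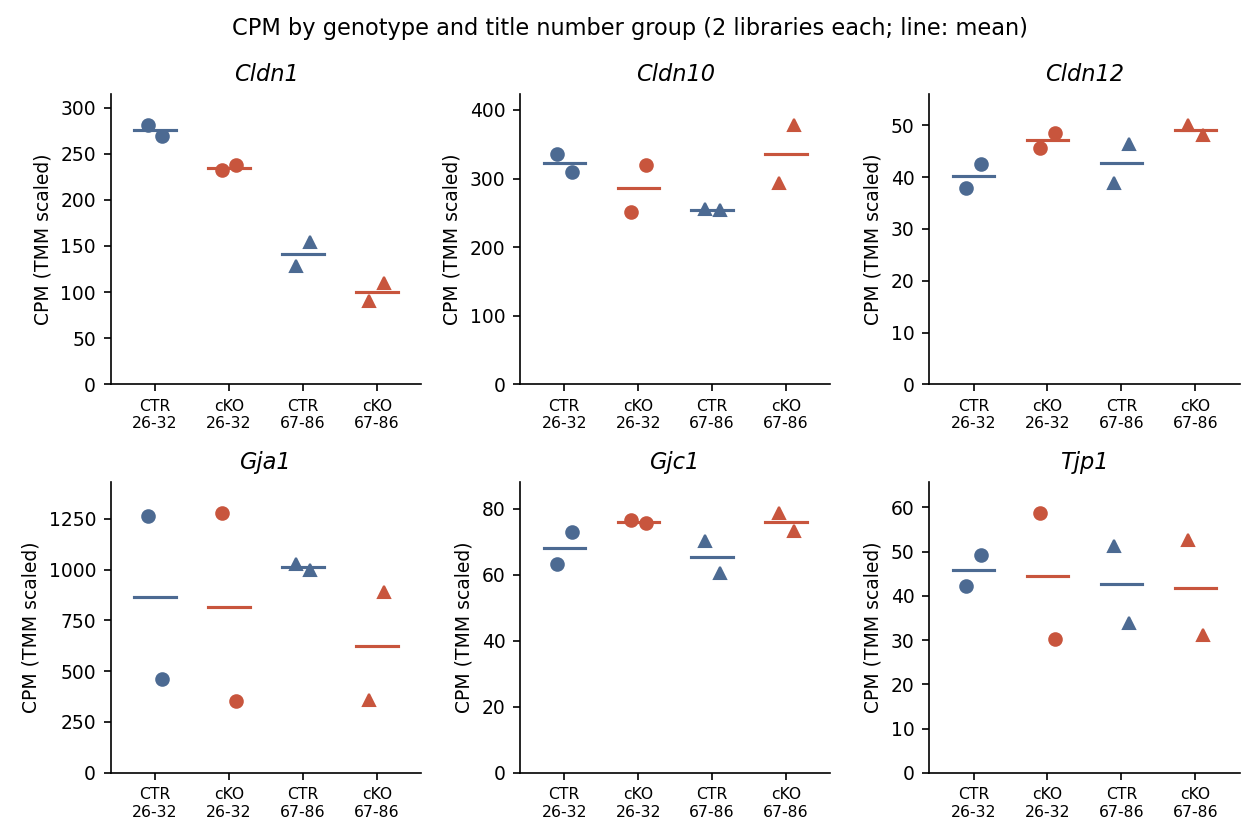
CPM of 6 of the genes in each library, by genotype and title number group, with 2 libraries per column and a line at their mean (blue CTR, red cKO). Cldn1 separates by number group and is lower in cKO within each, Cldn12 and Gjc1 are higher in cKO within each, and Gja1 and Tjp1 vary between libraries of the same column.

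Across all 14598 genes with a count in every library, 0 (0%) passed an adjusted p-value of 0.05 between genotypes in the quasi-likelihood test of edgeR (Benjamini-Hochberg), 638 had an unadjusted p-value under 0.05, and DESeq2's likelihood ratio test called 22 genes (0.151%), or 47 (0.322%) with the number group as a term. Of the 9 members 7 were in this fit, since Ocln and F11r had libraries at 0. No member passed in any of the 18 genotype fits tried, and nothing is read from this, since the members were chosen with this contrast known. Between the number groups 2 genes (0.0137%) passed, Cldn1 and Srgn, a proteoglycan core protein of blood cell granules (log2 difference -1.40, SE 0.15, adjusted p = 0.0497), which is named after its value was seen. For Cldn1 nothing is read from this, since it was chosen with this contrast known, and it passed in 2 of the 8 fits that left out 1 library. DESeq2's likelihood ratio test called 342 genes (2.34%) between the number groups.

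**Figure D4:**
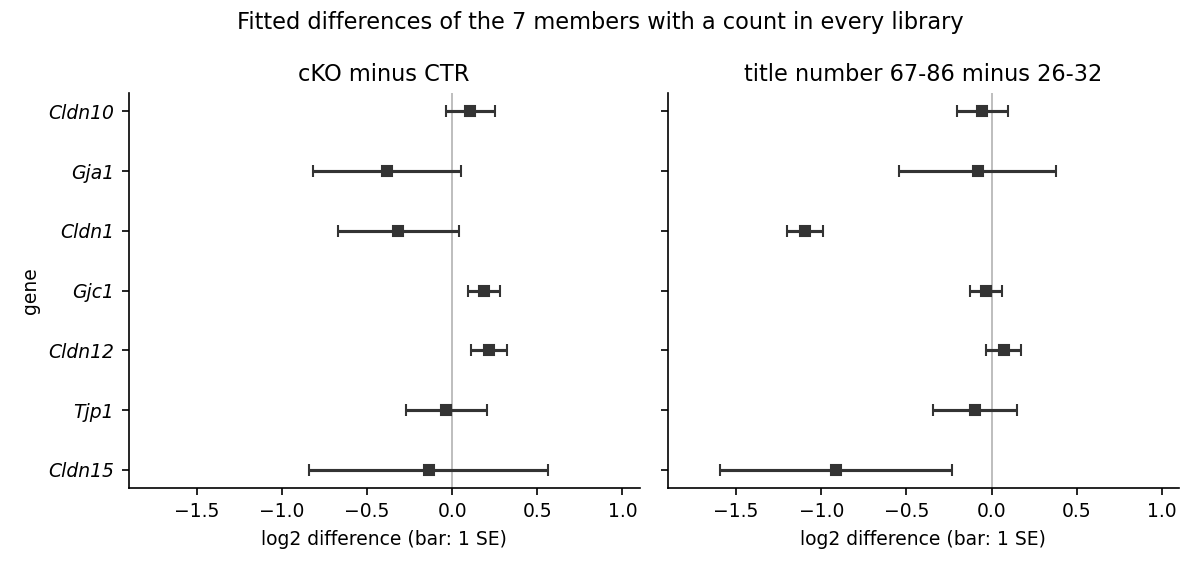
Fitted log2 differences of the 7 members with a count in every library, with bars of 1 SE, for cKO minus CTR on the left and title numbers 67-86 minus 26-32 on the right. On the left Gja1 (-0.38) and Cldn1 (-0.32) lie lowest with wide bars, and on the right Cldn1 (-1.09) has a narrow bar and Cldn15 (-0.92) a wide one.

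The wider junction lists hold 110 other genes, of which 41 were at 0 in every library and 46 were tested. None of the 46 passed in either contrast in edgeR after Benjamini-Hochberg adjustment (0% and 0.0137% of all genes). At an unadjusted p under 0.05 there were 3 of the 46 between genotypes, where 638 of 14598 genes were, and 4 between number groups, where 1690 of 14598 were, and DESeq2's likelihood ratio test called 0 in both. The median log2 difference of the 46 was -0.08 between genotypes and -0.004 between number groups, beside -0.01 for all genes in both.

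Among the other 31 claudins, 23 were at 0 in every library. The highest per kilobase were Cldn13 (2.69 CPM per kilobase), Cldn11 (0.930), a claudin of myelin and testis, and Cldn23 (0.301), all below Cldn12. Of the 18 other connexins 12 were at 0, and Gja5, the connexin 40 gene of vessels and heart, was the highest at 3.55 CPM per kilobase, followed by Gja4 (0.284) and Gja6 (0.0517). The pannexins, channel proteins related in fold to connexins, were led by Panx1 (5.41), with Panx3 at 0.553 and Panx2 at 0.00687 CPM per kilobase. In the occludin and tricellular junction list Ildr2 was at 4.94, Lsr at 0.278 and Marveld2 at 0.0147 CPM per kilobase.

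Other adhesion genes were higher. Clmp, an adhesion molecule related to the JAM family, was at 102 CPM per kilobase, Jam3 at 21.6 and Jam2 at 1.26, all above F11r. Among 21 other scaffold and polarity genes Mpdz was at 36.5, Amotl2 at 34.5 and Ybx3 at 31.2 CPM per kilobase, each above Tjp1. The mesenchymal cadherins led the adherens junction genes, with Cdh11 at 262 and Cdh2 (N-cadherin) at 73.5 CPM per kilobase, followed by Ctnnb1 (β-catenin) at 46.6. Of the transcription factors known to repress or activate epithelial junction genes, the repressor Snai2 was at 262 CPM per kilobase, Twist1 at 21.6 and Zeb2 at 16.4.

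**Figure D5:**
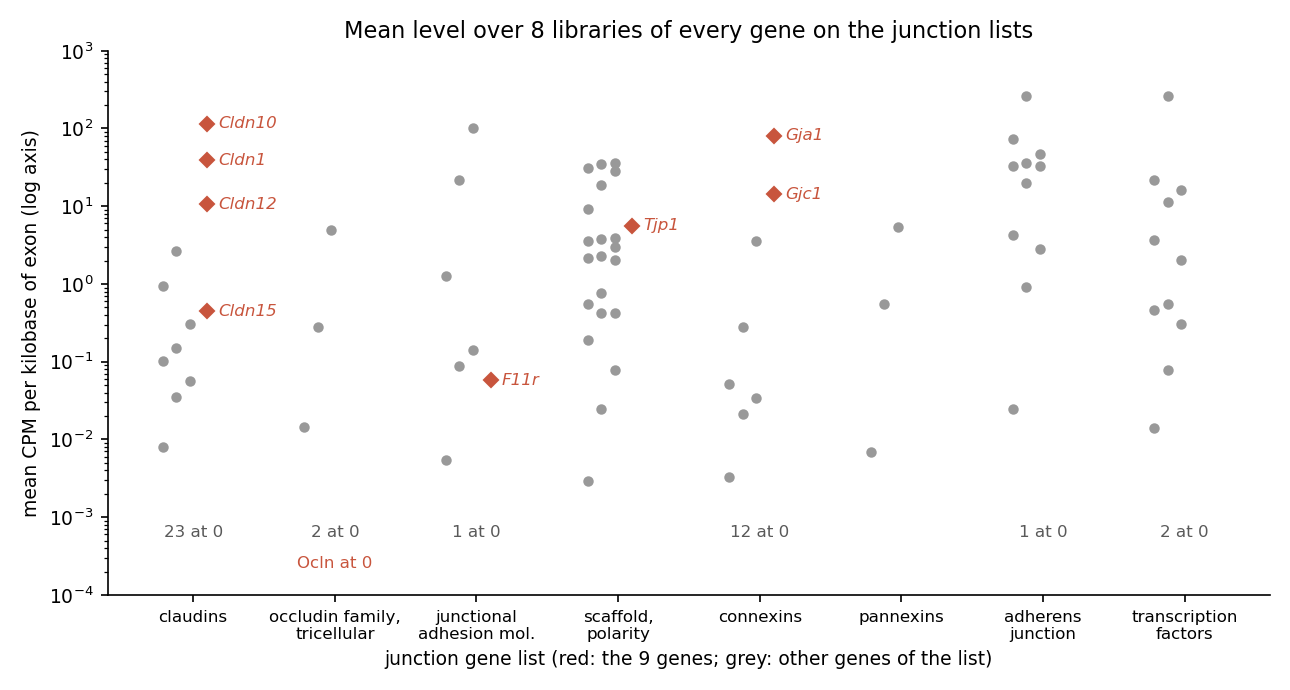
Mean level over 8 libraries of every gene on the 8 junction lists, in CPM per kilobase of exon on a log axis (red diamonds the 9 members, grey circles the other genes), with the number of genes at 0 printed below. Cldn10, Cldn1 and Cldn12 lie above all other claudins, Gja1 and Gjc1 lie above all other connexins, and 23 claudins and 12 connexins are at 0.

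Panx3 and Grhl1 were among the other tested genes with the largest fitted genotype differences at a mean of 1 CPM or more. Panx3, a pannexin of bone and cartilage, averaged 1.19 ± 0.776 CPM in the CTR and 2.62 ± 1.83 CPM in the cKO libraries (SD, n = 4), a log2 difference of 1.14 (SE 0.56, adjusted p = 1.00 in edgeR). Grhl1, an activator of epithelial adhesion genes, was at 4.23 ± 2.16 and 1.94 ± 1.05 CPM (log2 difference -1.12, SE 0.52). Smaller differences at an unadjusted p under 0.05 were found for more abundant genes, both named after their values were seen. Ildr2, of the tricellular junction list, was at 50.9 ± 16.7 CPM in the CTR and 30.6 ± 8.89 CPM in the cKO libraries (log2 difference -0.74, SE 0.26). Nectin3, a nectin of adherens junctions, was at 43.8 ± 7.51 and 64.8 ± 16.7 CPM (log2 difference 0.56, SE 0.20). None of these differences passed the threshold.

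The genes whose log2 CPM followed Cldn1 most closely over the 8 libraries, by the smallest root mean square difference after centring among the 9405 others averaging 10 CPM or more, were Spopl (0.20), Csmd1 (0.20) and Igfbp3 (0.23), against a root mean square of 0.59 for Cldn1 itself. Igfbp3, a secreted carrier of insulin-like growth factors, was at 1476 to 1854 CPM across CTR2, CTR4, cKO2 and cKO4 and at 687 to 1396 CPM across the others. Its number groups did not overlap either, as for 6.86% of genes tested. Igfbp3 was picked for its likeness to Cldn1 in these same libraries, so nothing further is read from this. For Gja1 the closest genes were Kif13a (0.42), Apod (0.42) and Anks6 (0.45), against 0.74 for Gja1. Apod, which encodes the lipid carrier apolipoprotein D, ran from 28.9 CPM in cKO1 to 161 CPM in cKO2, the libraries near the lower and at the upper end of Gja1.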

How the data were processed

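The study sequenced polyA RNA of sorted MSPCs from 4 CTR and 4 cKO mice. According to its methods, the authors trimmed paired reads, aligned them to GRCm38 with HISAT2 and counted them per gene with HTSeq-count, and the deposited values are raw counts without normalization. Whether counting used strand is not given in the sources used here. Between 57.4 and 59.4% of values from 1 to 20 were odd, so that the counting tool was not taken as settled.

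Members and gene lists were chosen with earlier results of these data known. Symbols, exons and positions came from GENCODE M21 on GRCm38, which matched 52403 of 52636 identifiers. The 14598 genes with no library at 0 entered edgeR 4.0.16 in R 4.3.3 (TMM scaling, glmQLFit and glmQLFTest, two-sided, Benjamini-Hochberg adjustment, threshold 0.05), between genotypes without covariates and between title number groups with genotype as a term. Log2 CPM used a prior count of 2. No overlapping gene shared exon bases with a member. Named genes were the 9 members, the other list genes past the threshold, the 3 with the largest genotype difference at a mean of at least 1 CPM (1 of them is not reported here), the 3 highest per kilobase of each list, and the 3 closest in pattern to Cldn1 and Gja1. Alternatives were other scalings and filters, DESeq2 1.42.0, a number group term, a replicate block, transcript length, and each library left out. The p-values measure the spread between mice sequenced in 1 experiment. According to its methods, the paper corrected its differential expression for a batch effect, which it does not name. The main genotype fit here had no batch term. Whether the title numbers follow that batch is not known, so p-values between number groups need not measure the spread between mice alone. Total counts of 31047344 to 38216877 set the precision, and floors cover counting error only. Single-cell data were left out.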

Additional observations from a re-analysis of the deposited data

Results flagged for a closer look

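F11r in the CTR libraries was singled out because 1 of the 4 stood apart from the rest: CTR4 was at 0.6165 CPM (23 counts) and the other 3 CTR libraries had 0 counts. Among 16 groups of 4 libraries examined, a rate of 1 in 20 gives 0.8 expected by chance. That rate does not apply here, since with 3 libraries at 0 the gap fills the whole range whatever the value of CTR4. Among the cKO libraries, F11r had 5 counts in cKO2 and 18 in cKO4.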

How the results depend on the processing

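The count of genes past the threshold between genotypes was 0 in the main edgeR fit, under other scalings, with the number group as a term, and in each fit without 1 library (0 to 0). It was 1 with filterByExpr and 1 with no filter (G430095P16Rik in both, named after its value was seen), 22 with DESeq2's likelihood ratio test (7 higher and 15 lower in cKO) and 47 with that test and the number group (20 higher and 27 lower). Between number groups, 2 genes passed in the main fit, 4 with no filter, 1 with DESeq2 size factors, 0 without the genotype term, 342 with DESeq2's likelihood ratio test and 0 to 4 without 1 library each. The cause of these shifts was not tested. Cldn1 passed without CTR replicate 3 and without cKO replicate 1, and not without the other 6 libraries. Since Cldn1 was chosen with this contrast known, nothing is read from its outcomes. The other junction genes stayed at 0 calls under every alternative in both contrasts. Same-numbered replicates, with title numbers 78 and 86, 32 and 31, 71 and 67, and 27 and 26, had correlations of deviations of 0.131, 0.176, 0.0844 and 0.0573. The labels do not say whether they pair mice, and the main fit did not pair them. With the replicate block 0 genes passed between genotypes, with 805 at an unadjusted p under 0.05. All 224 differences of members under alternatives moved by less than 1 SD between libraries, a wide bound within which a difference can still change sign. Among those that changed sign without 1 library, the number group difference of Gja1 was 0.46 without cKO replicate 2, and that of Tjp1 was 0.12 without the same library. Cldn15, F11r and Ocln had at most 66, 23 and 0 counts, and the part of depth in their spread was not tested.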
